A study of Mus musculus with 32 samples.

Results

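The genes described here are 4 growth factor receptors and 6 feedback genes of the ERK pathway in mouse neural stem cells (NSCs), chosen by symbol for their place in the pathway. They are Egfr, Fgfr1, Fgfr2 and Fgfr3 on the receptor side and Spry1, Spry2, Spry4, Dusp6, Etv4 and Etv5 on the feedback side. All 10 were found, by the identifier paired with their symbol, among the 23035 genes of the footprint tables. Ribo-Seq sequences the mRNA fragments that ribosomes protect (footprints) and, from the same lysates, the total RNA. NSCs were grown from the ventricular-subventricular zone of C57BL/6 mice aged 8 to 12 weeks, in medium that held EGF and bFGF, and were treated for 2 h or 14 h. The 4 groups were vehicle 2 h, IFN-β 2 h, vehicle 14 h and IFN-β 14 h, each of 4 cultures with a footprint and a total RNA library, 32 libraries in all. The labels name no transgene or deletion in any group, and all cultures received cycloheximide before lysis. Per the study's methods the replicates were biological.

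EGF binds the receptor encoded by Egfr, and FGFs bind the receptors encoded by Fgfr1, Fgfr2 and Fgfr3. Ligand-bound receptors signal through RAS and a kinase cascade to ERK, and this signalling keeps NSCs dividing in culture. ERK induces its own brakes. The Sprouty proteins (Spry1, Spry2, Spry4) act between the receptor and the cascade, Dusp6 is a phosphatase that inactivates ERK, and Etv4 and Etv5 are ETS transcription factors that rise with FGF and ERK activity. Their mRNA levels are widely read as a measure of ERK output. ETS factors bind DNA around the letters GGAA.

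Promoter sequence was taken from RefSeq (GRCm38.p6) for the 7 of 10 members that its promoter table holds. The 250 bases before the start site are shown for a receptor, Egfr, and for 2 feedback genes, Dusp6 and Etv5. Capitals mark the ETS core, GGAA on the printed strand or TTCC for the same letters on the other strand.
Egfr, chr11:16751953-16752202, plus strand: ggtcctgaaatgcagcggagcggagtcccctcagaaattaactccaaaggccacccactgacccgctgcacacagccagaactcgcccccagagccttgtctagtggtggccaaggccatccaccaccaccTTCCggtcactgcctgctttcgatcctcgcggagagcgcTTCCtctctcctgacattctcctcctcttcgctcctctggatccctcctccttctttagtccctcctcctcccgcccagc
Dusp6, chr10:99262981-99263230, plus strand: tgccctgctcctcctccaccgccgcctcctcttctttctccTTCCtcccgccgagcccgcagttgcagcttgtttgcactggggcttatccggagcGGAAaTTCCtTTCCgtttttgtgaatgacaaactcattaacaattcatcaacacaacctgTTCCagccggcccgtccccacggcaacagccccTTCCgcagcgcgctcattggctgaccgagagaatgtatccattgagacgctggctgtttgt
Etv5, chr16:22439571-22439820, minus strand: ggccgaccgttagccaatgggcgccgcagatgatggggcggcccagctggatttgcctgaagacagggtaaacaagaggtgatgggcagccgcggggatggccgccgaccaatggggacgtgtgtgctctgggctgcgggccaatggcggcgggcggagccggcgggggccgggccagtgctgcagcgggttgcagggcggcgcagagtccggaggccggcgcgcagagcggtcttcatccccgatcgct
The Egfr window held 2 ETS cores and the Dusp6 window 6. The Etv5 window at this start site held none, and a window at a second annotated start site of Etv5 held 4. A core of these 4 letters was present in 93.4% of the 32851 promoter windows of the same length, searched on both strands. The longer ETS motif CCGGAA, which contains the core, was present in the Egfr window, 119 bases before the start site, and in 12.0% of all windows. No member window held the interferon-stimulated response element searched as GAAA, any 2 letters and GAAA (2.98% of all windows), the gamma-activated site searched as TTCNNNGAA (7.02%) or the AP-1 motif searched as TGANTCA (6.75%). A match is a run of letters and no measured binding.

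Footprint libraries held 2956297 to 10505108 counts in coding sequence and total RNA libraries 1370008 to 7877753 counts in genes. Values are CPM, counts scaled to a common library size, after TMM scaling. The 10 NSC markers summed to 10040 to 17320 CPM in every group, with Vim, Fabp7, Nes and Sox2 among the high ones. The list was uneven. Prom1 stayed at 3.91 CPM or less, Hes5 at 32.7 CPM or less, and Gfap at 14 h at 2.01 CPM or less. Microglial, endothelial, mural and ependymal lists stayed at 58.1 CPM or less, and the neuroblast list at 153.7 CPM or less. The oligodendrocyte lineage list was high through Olig1 and Olig2, which NSCs in culture also express, while Mbp stayed at 1.12 CPM or less and Mog at 0.143 CPM or less. This list moved with treatment at 2 h, from 2221 to 2667 CPM with vehicle to 1439 to 1628 CPM with IFN-β, and its part in the results below was not tested. At 14 h the ependymal list moved from 17.2 to 23.7 CPM to 42.5 to 58.1 CPM, nearly all of it Foxj1, with Pifo and Tmem212 at 0 in every library. The microglial list moved from 5.94 to 8.61 CPM to 20.9 to 26.6 CPM, nearly all of it P2ry12, with Cx3cr1 and Aif1 at 0 in every library. Their part in the results at 14 h was not tested either. The interferon response check, 6 interferon-stimulated genes summed, rose from 48.1 to 69.3 CPM to 1926 to 4357 CPM at 2 h and from 24.8 to 32.8 CPM to 4985 to 6002 CPM at 14 h.

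The cultures numbered 3 at 2 h stood apart from the other 3 cultures of both groups in 9 of the 10 members. This was not particular to the members. The non-members compared, Gfap, Sox2, Slc1a3, Hes5, Egr1, Ccnd1 and Nes, all stood apart too, and the share over all genes was not counted. Egfr, Fgfr2 and Fgfr3 were above, and all 6 feedback genes below, every other library of the same group. In the vehicle library of number 3, Dusp6 was at 100.5 CPM against 424 to 506 CPM in the others, and Fgfr3 at 177 CPM against 54.9 to 80.1 CPM. Gfap, a marker of astrocytes and quiescent NSCs, was at 114 CPM in that vehicle library against 0.689 to 4.90 CPM, and at 469 CPM in the IFN-β library of number 3 against 46.2 to 75.3 CPM. Of the other NSC markers compared by number, Sox2, Slc1a3 and Hes5 were also above every other library of their group, and Nes was below. With vehicle, Nes was at 1672 CPM in number 3 against 2532 to 3551 CPM. The part of this culture difference in the results was not tested beyond leaving both libraries out. Same-numbered footprint libraries deviated together at both times, so footprint calls of the members are given with and without the replicate number as a block. At 14 h, values with no fit named are from the fit without the block, as are those in total RNA and TE.

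Per length of coding sequence, the levels of receptors and feedback genes were interleaved. In vehicle cultures at 14 h, Dusp6 had the highest level of the 10, 660.0 ± 44.2 CPM per kb (SD, n = 4). Etv5 followed with 271.5 ± 13.0 and Spry4 with 271.4 ± 16.6 CPM per kb, and these 2 overlapped over libraries. Spry2 (220.9 ± 12.5 CPM per kb) and Egfr (216.7 ± 7.93 CPM per kb) also overlapped. Below them came Spry1 at 132.6 ± 13.6, Fgfr1 at 72.2 ± 5.82, Etv4 at 30.5 ± 2.71, Fgfr3 at 11.4 ± 1.04 and Fgfr2 at 4.47 ± 0.628 CPM per kb, each apart from its neighbours. In vehicle cultures at 2 h, Egfr had the highest mean, 397.2 ± 123.0 CPM per kb, and Fgfr2 again the lowest, 15.96 ± 9.62 CPM per kb. The spread was wider there, and every neighbouring pair in the order overlapped except Etv5 (171.6 ± 42.6 CPM per kb) and Spry1 (73.99 ± 30.6 CPM per kb). Dusp6 differed 5.04-fold between its lowest and highest vehicle library at 2 h and 1.17-fold at 14 h. Egfr differed 2.07-fold at 2 h and 1.08-fold at 14 h. Fgfr1 was the exception, with 1.13-fold at 2 h and 1.2-fold at 14 h.

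**Figure D1:**
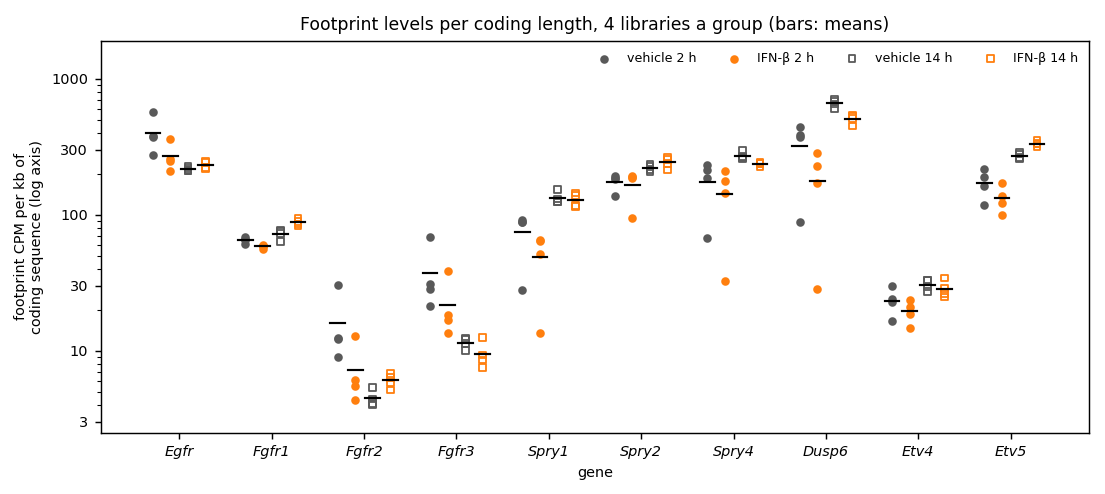
Footprint level of each gene, in CPM per kb of coding sequence on a log axis, in every library of the 4 groups (grey, vehicle; orange, IFN-β; filled circles, 2 h; open squares, 14 h; bars, means of 4 libraries). Dusp6 lies highest in the 14 h vehicle libraries at a mean of 660.0 CPM per kb, Fgfr2 lowest at 4.47, and the 2 h libraries scatter more than the 14 h libraries in all genes but Fgfr1.

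At 2 h the question was whether an early IFN-β exposure changes the share of footprints that lies on these mRNAs. All 10 members had a negative log2 fold change, with a median of -0.47 against -0.02 over all 12104 genes tested. In these bulk libraries, fewer cells that express a gene and fewer footprints per cell cannot be told apart. Without the replicate block no member was called (edgeR quasi-likelihood test, adjusted p under 0.05), while 7.25% of all genes were called. At an unadjusted p under 0.05, 2 members passed, Egfr and Fgfr2, as did 2100 of all 12104 genes. DESeq2 called 0 members and 1159 genes, and 3 members and 2073 genes passed at an unadjusted p under 0.05. With the block, 9 members were called lower, all but Spry2, and 13.4% of all genes were called lower. The same 9 members were lower with IFN-β in each of the 4 replicate numbers, as were 22.5% of all genes. Without the block, the size of the change at 2 h depended on the libraries of number 3. Leaving out number 3 of vehicle or of IFN-β gave log2 fold changes of -0.663 and -1.587 for Fgfr2, -0.313 and -1.203 for Fgfr3, and -0.336 and -0.736 for Egfr. For the feedback genes the order was opposite, with -1.165 and -0.498 for Dusp6, -0.861 and -0.295 for Spry1, -0.566 and 0.026 for Spry4, -0.376 and -0.141 for Etv4 and -0.521 and -0.263 for Etv5. None of these values was called. Fgfr1 was the 1 member whose IFN-β libraries all lay below all vehicle libraries, which 5.30% of all genes did. Without both libraries of number 3 and without the block, 6 members were called lower, namely Egfr, Fgfr2, Fgfr3, Spry1, Dusp6 and Etv5, as were 5.36% of all genes.

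Fgfr2, the FGF receptor with the lowest footprint level per length, fell the most. Its vehicle libraries at 2 h, in the order of numbers 2, 3, 5 and 6, held 25.4, 84.9, 34.4 and 34.7 CPM, and its IFN-β libraries 12.1, 36.2, 15.5 and 17.1 CPM. Number 3 was high in both groups, so the groups overlapped, but CPM was 50.8% to 57.4% lower in every culture than in the vehicle library of its number. The log2 fold change was -1.13 ± 0.084 (SE) with the block (adjusted p = 2.35e-11) and -1.17 ± 0.45 without it (adjusted p = 0.199).

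Fgfr3, a further FGF receptor, was at 54.9, 177, 80.1 and 73.0 CPM with vehicle and 34.6, 99.3, 47.1 and 43.3 CPM with IFN-β. The decrease was even over cultures, 37.0% to 44.0%, although number 3 again carried more footprints than any other library of its group. The log2 fold change was -0.76 ± 0.061 with the block (adjusted p = 9.01e-11) and -0.79 ± 0.42 without (adjusted p = 0.417).

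Egfr, the EGF receptor, was at 1019, 2112, 1375 and 1402 CPM with vehicle and 777, 1341, 953 and 922 CPM with IFN-β. The IFN-β library of number 3 lay above the vehicle library of number 2, and within numbers the decrease was 23.7% to 36.5%. The log2 fold change was -0.54 ± 0.041 with the block (adjusted p = 2.87e-11) and -0.56 ± 0.24 without (adjusted p = 0.254). Fgfr1 differed from the other receptors in size. It was at 177, 173, 161 and 181 CPM with vehicle and 158, 159, 149 and 157 CPM with IFN-β, a decrease of 7.2% to 13.5% with no overlap of the groups. Its log2 fold change was -0.15 ± 0.048 with the block (adjusted p = 0.0204), and this call was lost when the pair numbered 2, 5 or 6 was left out (adjusted p = 0.0541 to 0.136).

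Among the feedback genes Dusp6, the ERK phosphatase, had the largest change at 2 h. Its vehicle libraries held 506, 101, 439 and 424 CPM and its IFN-β libraries 323, 32.5, 196 and 258 CPM. Number 3 was lowest in both groups and had the largest decrease in CPM, 67.7%, against 36.1% to 55.3% in the other numbers. The log2 fold change was -0.93 ± 0.081 with the block (adjusted p = 4.81e-10) and -0.85 ± 0.64 without (adjusted p = 0.617). Leaving out both libraries of number 3 gave -0.81 ± 0.14 without the block (adjusted p = 0.00181).

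The 3 Sprouty genes did not move alike. Spry1 was at 82.6, 26.4, 86.2 and 82.8 CPM with vehicle and 60.2, 12.7, 47.8 and 61.5 CPM with IFN-β. With the block its log2 fold change was -0.62 ± 0.078 (adjusted p = 4.54e-07). Apart from number 3 its groups did not overlap. Spry4 was at 207, 61.0, 192 and 168 CPM with vehicle and 188, 29.4, 131 and 160 CPM with IFN-β. Its decrease ran from 5.1% in number 6 to 51.7% in number 3, for a log2 fold change of -0.35 ± 0.083 with the block (adjusted p = 0.00164), which was lost without the pair numbered 5 (adjusted p = 0.0626). Spry2 was at 181, 129, 177 and 173 CPM with vehicle and 180, 89.7, 182 and 177 CPM with IFN-β. Only number 3 separated, with 30.4% less, and the log2 fold change of -0.09 had a 95% interval of -0.215 to 0.041 with the block (adjusted p = 0.353). Without number 3 it was 0.02 ± 0.052.

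Of the ETS factors, Etv5 was at 344, 187, 256 and 301 CPM with vehicle and 268, 157, 192 and 218 CPM with IFN-β. The decrease in CPM was similar in all cultures, 16.1% to 27.8%, and the log2 fold change was -0.37 ± 0.047 with the block (adjusted p = 3.24e-07). Etv4, with fewer footprints than Etv5, was at 34.9, 24.2, 33.1 and 43.5 CPM with vehicle and 34.1, 21.4, 27.3 and 30.5 CPM with IFN-β. Its log2 fold change of -0.24 ± 0.087 with the block (adjusted p = 0.0358) was lost without the pair numbered 5 or 6 (adjusted p = 0.130 and 0.337).

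**Figure D2:**
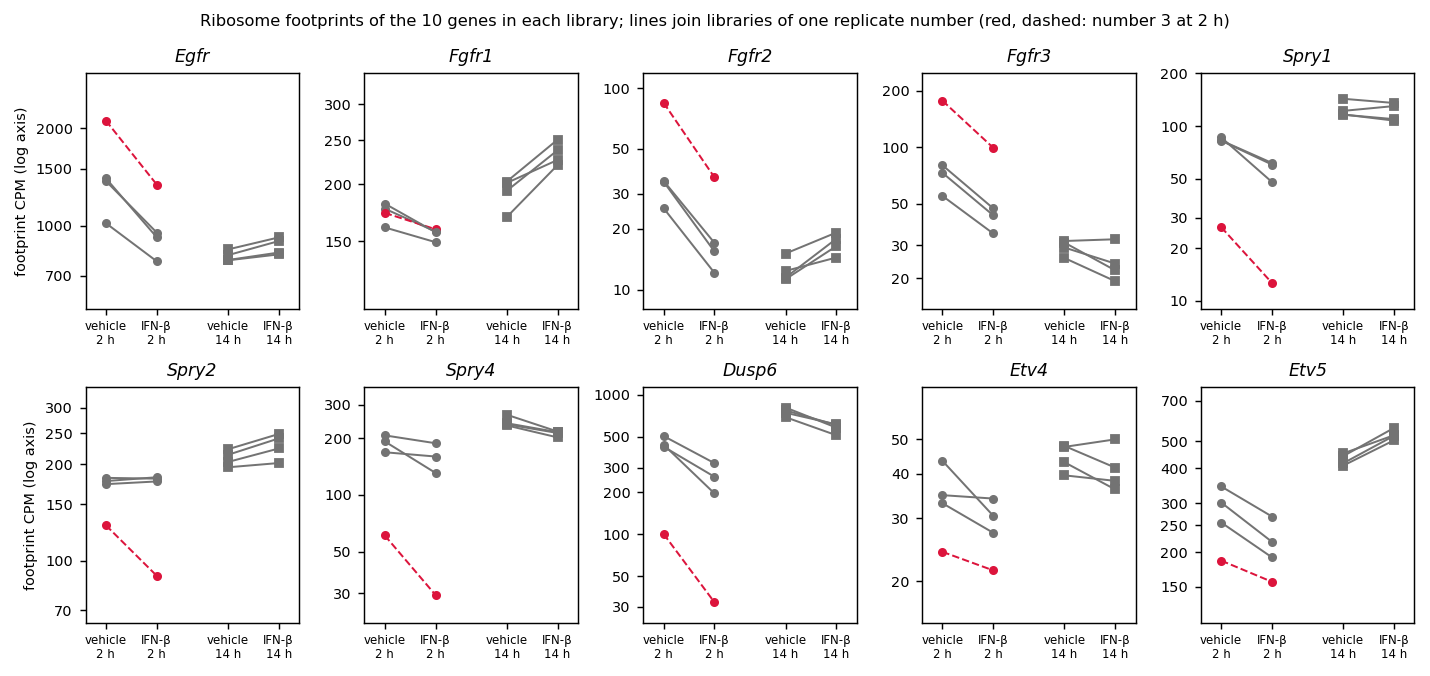
Footprint CPM of the 10 genes in every library, on log axes that differ between panels (circles, 2 h; squares, 14 h; lines join the vehicle and IFN-β library of a replicate number; red dashed, number 3 at 2 h). At 2 h the lines of all genes but Spry2 fall in all 4 numbers while number 3 lies apart, and at 14 h Dusp6 and Spry4 fall and Egfr, Fgfr1, Fgfr2, Spry2 and Etv5 rise in all 4 numbers.

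After 14 h the members no longer shared a direction. Without the block 6 members were called, Fgfr1, Fgfr2 and Etv5 higher and Fgfr3, Spry4 and Dusp6 lower. This share lay near the background, since 52.5% of all 12113 genes tested were called at 14 h, 26.2% higher and 26.3% lower. The median log2 fold change of the members was 0.02 against 0.00 over all genes. With the block 8 members were called, the same 6 and also Egfr and Spry2, both higher, and 62.8% of all genes were called. Dusp6 and Spry4 lay lower in every IFN-β library than in any vehicle library, as did 23.0% of all genes, and Fgfr1 and Etv5 lay higher, as did 23.4%, so that 46.3% of all genes did not overlap. By replicate number, 2 members were lower in all 4 numbers against 32.3% of all genes, and 5 were higher against 34.2%.

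Dusp6 and Spry4 were the feedback genes called lower at 14 h. In the order of numbers 1 to 4 its vehicle libraries held 743, 773, 691 and 810 CPM and its IFN-β libraries 613, 606, 513 and 581 CPM. The decrease was 17.5% to 28.2%, and the log2 fold change was -0.39 ± 0.067 (adjusted p = 0.000303). Spry4 went from 240, 237, 234 and 266 CPM to 215, 213, 202 and 217 CPM, a log2 fold change of -0.22 ± 0.056 (adjusted p = 0.00600). Both fell in all 4 numbers. Spry1 gave 143, 122, 116 and 117 CPM with vehicle and 136, 130, 110 and 108 CPM with IFN-β, and its log2 fold change of -0.06 had a 95% interval of -0.233 to 0.113 (adjusted p = 0.595). Spry2 went from 223, 214, 196 and 203 CPM to 248, 241, 202 and 224 CPM. Its groups overlapped, and its log2 fold change of 0.12 was called with the block (adjusted p = 0.00825) and not without it (adjusted p = 0.165). The call with the block was lost without the pair numbered 2 (adjusted p = 0.0501).

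Etv5 moved against the direction it had at 2 h. It was at 452, 417, 409 and 442 CPM with vehicle and 526, 523, 504 and 558 CPM with IFN-β, 16.2% to 26.3% more in each number, for a log2 fold change of 0.29 ± 0.056 (adjusted p = 0.000836). Etv4 was at 47.9, 47.6, 39.6 and 43.1 CPM and 41.6, 49.9, 38.2 and 36.1 CPM, with a 95% interval of its log2 fold change of -0.312 to 0.087 (adjusted p = 0.378).

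The receptors split at 14 h. Fgfr1 went from 203, 194, 169 and 201 CPM to 251, 238, 221 and 226 CPM, a log2 fold change of 0.27 ± 0.067 (adjusted p = 0.00394). Fgfr2 went from 12.4, 11.5, 11.3 and 15.1 CPM to 14.4, 17.9, 16.4 and 19.2 CPM, a log2 fold change of 0.45 ± 0.13 (adjusted p = 0.00896). Both rose in all 4 numbers. Fgfr3 was at 31.6, 29.1, 25.6 and 31.0 CPM with vehicle and 32.2, 23.9, 19.3 and 22.0 CPM with IFN-β, lower in 3 of 4 numbers. Its log2 fold change of -0.33 ± 0.12 passed the threshold narrowly (adjusted p = 0.0418), missed it in DESeq2 (adjusted p = 0.0529) and was lost without any of 6 single libraries (adjusted p = 0.0677 to 0.142), and passed with the block (adjusted p = 0.00156). Egfr changed little, from 784, 782, 811 and 845 CPM to 827, 816, 897 and 921 CPM. This was 4.3% to 10.6% more in each number, for a log2 fold change of 0.09 with adjusted p = 0.182 without and 0.0216 with the block, and the latter call was lost without the pair numbered 3 or 4 (adjusted p = 0.161 and 0.0871).

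**Figure D3:**
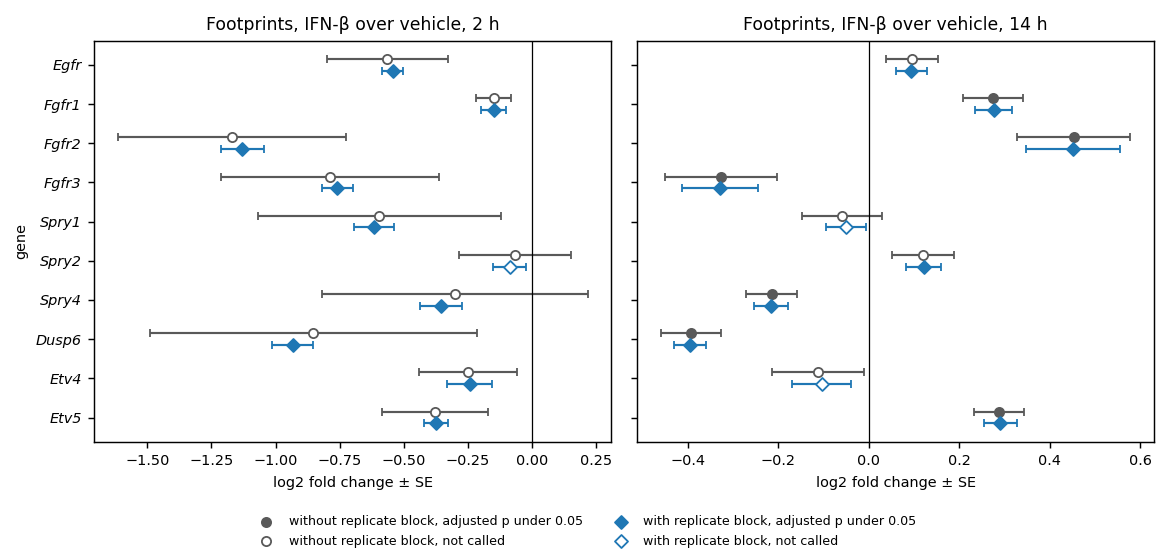
log2 fold change of footprints, IFN-β over vehicle, with its standard error for each gene at 2 h (left) and 14 h (right), from the fit without (grey circles) and with (blue diamonds) the replicate block; filled symbols have an adjusted p under 0.05. At 2 h no grey and 9 blue symbols are filled, all on the negative side, and at 14 h 6 grey and 8 blue symbols are filled on both sides of 0.

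Whether the response differed between the times was read from an interaction term in a fit of all 16 footprint libraries. All 10 members had a higher log2 fold change at 14 h than at 2 h, with a median difference of 0.48 against 0.02 over all 12508 genes tested. Without the block 3 members were called, Fgfr2 (difference 1.63 ± 0.50, adjusted p = 0.0225), Etv5 (0.68 ± 0.23, adjusted p = 0.0326) and Fgfr1 (0.44 ± 0.097, adjusted p = 0.00287), all with a higher value at 14 h, as had 15.4% of all genes. With the block 8 were called in this direction, all but Spry4 and Etv4, as were 28.0% of all genes. Egfr was among these with a difference of 0.65 ± 0.053 (adjusted p = 3.63e-11), and it missed the threshold without the block (adjusted p = 0.0548). Dusp6 had a difference of 0.54 ± 0.10 with the block (adjusted p = 5.86e-05). For Spry4 the interval of the difference was -0.064 to 0.344 with the block. The call on Etv5 without the block was lost without any of 6 single libraries (adjusted p = 0.0555 to 0.0650). The 2 h libraries carry the numbers 2, 3, 5 and 6 and the 14 h libraries 1 to 4, and in these differences time cannot be told apart from the set of cultures.

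In the other 67 genes of the EGF and FGF to ERK pathway the responses were mixed at 2 h. Of the 58 tested, 7 were called higher and 1 lower without the block, and 20 higher and 8 lower with it, with medians of 0.05 and 0.04 against -0.02 and -0.01 over all genes. Over all genes, 5.25% were called higher and 2.01% lower without the block, and 15.9% and 13.4% with it. These pathway genes were thus called higher in a larger share than all genes in both fits, and called lower in a share near that of all genes. No test of these shares was made. Among 14 tested inhibitors, Dusp5, a phosphatase that acts on nuclear ERK, rose from 16.5 to 31.9 CPM in vehicle libraries to 48.9 to 81.3 CPM (log2 fold change 1.47 ± 0.24, adjusted p = 0.00442). Spred1, a Sprouty-related inhibitor of RAS to RAF signalling, rose from 98.8 to 140.8 CPM to 210.4 to 258.6 CPM (log2 fold change 0.93 ± 0.12, adjusted p = 0.00154). Dusp7, a cytoplasmic ERK phosphatase like Dusp6, was the 1 pathway gene called lower without the block, from 28.94 to 38.91 CPM to 15.7 to 20.5 CPM (log2 fold change -0.91 ± 0.12, adjusted p = 0.00175). The inhibitors outside the members therefore held 2 called higher and 1 called lower, 6 and 1 with the block.

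Of 13 tested other ERK targets at 2 h, 2 were called higher and 0 lower without the block, and 4 higher and 5 lower with it. Over all genes, 5.25% and 2.01% were called without the block and 15.9% and 13.4% with it. Among these targets Phlda1 rose (log2 fold change 1.22 ± 0.21, adjusted p = 0.00578). Egr1, an immediate early gene of ERK signalling, was at 245.5 to 357.8 CPM with vehicle and 61.3 to 204.5 CPM with IFN-β, with no overlap. It was called lower with the block (log2 fold change -0.999 ± 0.107, adjusted p = 2.52e-08) and not without it (adjusted p = 0.149). With the block Epha4, an ephrin receptor, and Ier3, an immediate early gene, were also called lower, at -1.05 ± 0.11 (adjusted p = 1.07e-08) and -0.52 ± 0.10 (adjusted p = 0.000196). Of the kinase cascade, 1 of 13 genes was called without the block, Rps6ka3, a kinase downstream of ERK, which rose by 0.67 ± 0.084 on the log2 scale (adjusted p = 0.00103). Of 6 tested ligands at 2 h, 1 was called higher without the block and 4 with it, and none lower in either fit. Fgf2, which encodes bFGF, was the 1 called without the block. It had 4 to 10 counts in vehicle and 26 to 57 counts in IFN-β libraries, and the groups did not overlap. Its log2 fold change was 2.73 ± 0.46 (adjusted p = 0.0055), and 2.69 ± 0.26 with the block (adjusted p = 3.9e-09). Fgf2 passed the filter on low counts only through its IFN-β libraries, where it was high. Its call is therefore not independent of the filter. Fgf2 had too few counts for the rule on named genes and was named after its values were seen, and in the GENCODE annotation an exon of Gm43439 on the same strand overlaps its coding sequence. Fgf1 (0.68 ± 0.11, adjusted p = 1.41e-05), Areg (0.66 ± 0.22, adjusted p = 0.0234) and Hbegf (0.47 ± 0.086, adjusted p = 0.000105) were called higher with the block alone. Areg and Hbegf were also named after their values were seen, and Areg had 9 to 51 counts at 2 h.

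At 14 h, 15 of 56 tested pathway genes were called higher and 12 lower without the block, with a median of 0.07 against 0.00 over all genes. Both shares lay near the background at this time, 26.2% higher and 26.3% lower over all genes. With the block 17 were called higher and 15 lower, against 3856 and 3753 of all 12113 genes. The immediate early genes Ier2, Egr1 and Fos were lower, at log2 fold changes of -1.06 ± 0.10 (adjusted p = 1.55e-06), -0.98 ± 0.074 (adjusted p = 1.91e-07) and -0.58 ± 0.11 (adjusted p = 0.000564). Egr1 had 298.8 to 324.0 CPM with vehicle and 140.8 to 186.6 CPM with IFN-β. The early gene Ier3 was higher at 14 h (0.55 ± 0.11, adjusted p = 0.00103). Hbegf, a ligand of the EGF receptor, fell from 23.4 to 39.5 CPM to 17.8 to 20.5 CPM (log2 fold change -0.62 ± 0.16, adjusted p = 0.00487), while at 2 h it had been called higher with the block. Among the inhibitors 6 of 14 were called higher and 2 lower. Spred3 and Il17rd, which like the Sprouty proteins restrain FGF signalling, rose by 0.69 ± 0.11 (adjusted p = 0.000158) and 0.58 ± 0.16 (adjusted p = 0.00913) on the log2 scale. Elk1, an ETS factor that ERK phosphorylates, rose by 0.72 ± 0.18 (adjusted p = 0.00431).

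**Figure D4:**
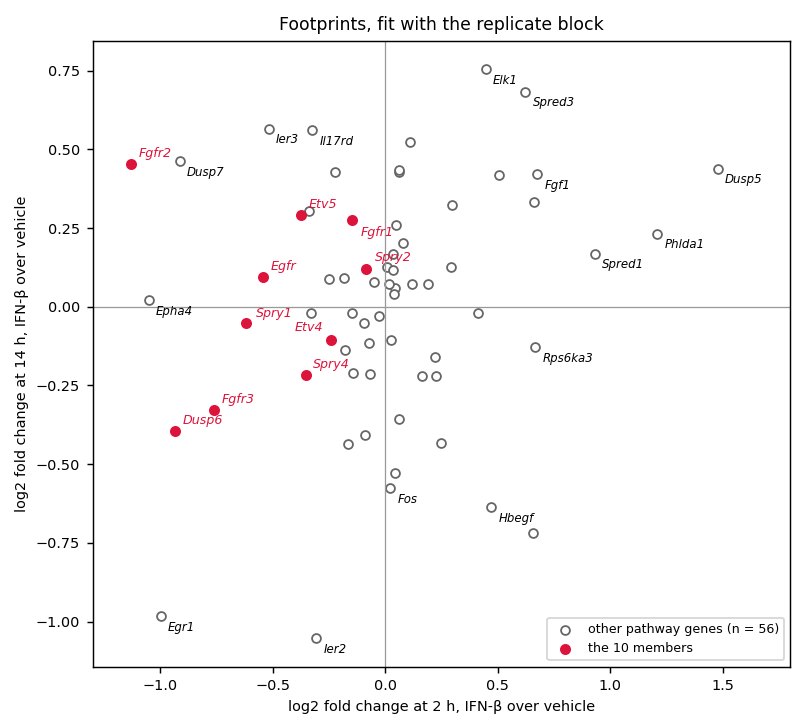
log2 fold change of footprints at 2 h (horizontal) against 14 h (vertical), IFN-β over vehicle with the replicate block, for the 10 members (red) and the 56 other pathway genes tested at both times (open circles; named ones in black). All members lie left of 0 at 2 h and on both sides of 0 at 14 h, and the other pathway genes lie on both sides at both times.

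Total RNA gave little information on these genes. At 2 h the median count per group was 5.5 to 115 in all members but Fgfr2, and at 14 h it was 4 to 56. Dusp6 had 1 to 21 counts in any library and was not tested in total RNA, and Spry4 was not tested at 14 h. No member was called in total RNA at 2 h (of 9 tested) or 14 h (of 8 tested), against 0.799% and 6.30% of all genes. At an unadjusted p under 0.05, 3 and 1 members passed, against 844 of 11639 and 1417 of 7520 genes. DESeq2 called 0 members at both times as well, against 169 and 482 genes. At an unadjusted p under 0.05 it had 1 and 0 members, against 779 and 1226 genes. Fgfr3 had the smallest p at 2 h, with 111 to 276 counts in vehicle and 57 to 102 counts in IFN-β libraries (log2 fold change -1.08 ± 0.32, adjusted p = 0.280).

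Translational efficiency (TE), the change in footprints relative to the change in total RNA, was tested as an interaction in 1 model. No member was called at 2 h or at 14 h at an adjusted p under 0.1, against 0.815% and 8.46% of all genes. At an unadjusted p under 0.05, 0 members passed at either time, against 1004 of 14115 and 2419 of 13447 genes. DESeq2's likelihood ratio test called 0 members at both times, against 259 and 1482 genes. It had 0 and 2 members at an unadjusted p under 0.05, against 1242 and 2572 genes. The intervals were wide. For Dusp6 at 2 h the log2 TE change of -0.42 had a 95% interval of -2.382 to 1.552, and for Egfr at 2 h the change of -0.28 had one of -1.399 to 0.834. Whether footprints moved with their mRNA or apart from it was not detectable with the total RNA counts of these genes. How well those counts measure these mRNAs was not tested.

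Total RNA of Fgfr2, Fgfr1 and Egfr has limits of its own. Fgfr2 had 2956 to 154370 counts, and in the GENCODE annotation its model spans 2960900 bp (chr7:130162451-133123350) with 36 other genes on the same strand and 33 on the opposite strand inside its bounds. Fgfr1 shares 164 bp of exon with an antisense gene, Gm16159, which had 690 to 1290 counts at 2 h, more than Fgfr1 itself (52 to 111 counts). The Egfr bounds hold an antisense gene, Egfros, with 200 to 882 counts at 2 h against 33 to 224 for Egfr. Inside the Fgfr2 bounds, same-strand genes with values had 0 counts in every library, apart from Ctbp2 (7 to 23 at 2 h). Opposite-strand genes there were counted, such as Zranb1 (132 to 711 at 2 h) and Tacc2 (65 to 138), except Hmx2 and Hmx3 with 0. The strand setting of the counting is not given in the sources used here. Whether the strand counted is that of the mRNA was not tested.

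With each of the 16 footprint libraries taken relative to the vehicle mean of its time on the log2 scale, Egfr correlated with Fgfr2 at r = 0.971 with Fgfr3 at 0.847 and with Fgfr1 at 0.500. With the feedback genes its r ran from -0.412 (Spry4) to 0.069 (Etv5), with -0.253 for Dusp6. Over the 14 libraries without number 3 at 2 h, r of Egfr was 0.965 with Fgfr2, 0.817 with Fgfr3 and 0.637 with Fgfr1, and it ran from -0.544 (Spry4) to 0.496 (Etv5) with the feedback genes, with -0.092 for Dusp6. Among 9896 genes, the non-members most like Egfr were Adgrg1 (r = 0.971), Ackr3 (0.964), Dll1 (0.963), Sesn1 (0.961) and Hepacam (0.960). These 5 values were 0.951 to 0.967 without number 3 at 2 h. Those most like the mean of the 6 feedback genes were Adm (0.972), Lrrfip1 (0.969), Arid4a (0.955), Cpne2 (0.955) and Serpinb5 (0.946), and their values fell to 0.685 to 0.833 over the 14 libraries without number 3 at 2 h. In the values over 14 libraries the vehicle mean at 2 h still included number 3, so they are not free of it. The libraries share cultures by number and differ in depth, so these are descriptions.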

How the data were processed

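Ribosome footprints and total RNA of cultured NSCs were compared between vehicle and IFN-β at 2 h and at 14 h, with 4 libraries per group and kind. The authors trimmed reads with TrimGalore 0.4.4, mapped them with bowtie 0.12.7 to the mm10 (GRCm38) ENSEMBL transcriptome, discarded duplicate reads and counted the rest with SummarizeOverlaps (mode Union). The values they deposited are raw counts, in coding sequence for footprints and in whole gene bodies for total RNA, and the strand setting is not given in the sources used here. All count columns were used. The members, the pathway list, the marker lists and the tests were chosen with earlier results of these data known.

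Counts were tested in R 4.3.3 with edgeR 4.0.16 (TMM scaling, two-sided quasi-likelihood test, Benjamini-Hochberg adjustment over all genes tested), where 4 or more libraries of the comparison had 10 counts or more. The threshold on adjusted p was 0.05 (0.1 in TE). The alternatives were total counts alone, DESeq2 1.42.0, no filter, a mean of at least 50 counts, the replicate number as a block, and each library left out in turn. Leaving out both libraries of a number was added after seeing the data. Standard errors were taken from the F statistic. The 95% intervals were built from them with a normal quantile, so they are narrower than the test itself implies. The edgeR fits of footprints at 2 h, of the difference between the times and of TE at 14 h were tested on simulated counts. This was done with and without the block, on counts that held no effect of replicate number. The other comparisons, DESeq2 and the other filters were not tested in this way.

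The groups share replicate numbers in the labels. Same-numbered footprint libraries deviated together in every pair (r = 0.328 to 0.812 at 2 h and 0.192 to 0.418 at 14 h), so the numbers were taken to pair the footprint samples. Footprint libraries of different numbers had r of -0.629 to 0.324 at 2 h and -0.375 to 0.112 at 14 h. The highest same-number value at 2 h, 0.812, was that of number 3. In total RNA, r of the same number ran from -0.477 to 0.390. The basis of the pairing is this check and not a statement in the labels. Symbols, positions and coding lengths came from GENCODE M21, and promoters from RefSeq (Python 3.11.15, pandas 2.3.3, matplotlib 3.10.9). Named pathway genes are, at each time and in each fit, up to 4 called higher and 4 called lower with the largest log2 fold change where the mean count reached 50. The genes most like a profile are the 5 with the highest Pearson correlation over libraries, at log2(CPM + 0.5).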

Additional observations from a re-analysis of the deposited data

Results flagged for a closer look

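Of 80 groups of 4 libraries examined for the members, 7 held a library far from the others (gap over range above Dixon's critical value), and chance flags about 1 group in 20. The cultures numbered 3 at 2 h gave 5 of them. With vehicle, number 3 was the highest footprint library for Fgfr2 (0.844) and the lowest for Spry1 (0.940) and Spry2 (0.848). With IFN-β it was the lowest footprint library for Spry2 (0.941), and in total RNA with vehicle the lowest for Spry1 (0.882). In total RNA, Fgfr2 was also far highest in number 5 of vehicle at 2 h (0.969) and Etv4 in number 4 of IFN-β at 14 h (0.897).

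The footprint response to IFN-β differed between 14 h and 2 h, by the test of the interaction without the replicate block, for Fgfr1 (0.44 on the log2 scale), Fgfr2 (1.63) and Etv5 (0.68). All 3 were lower at 2 h and higher at 14 h in every replicate number.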

How the results depend on the processing

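Under the replicate block, the count of members called in footprints went from 0 to 9 at 2 h and from 3 to 8 for the difference between the times, and from 6 to 8 at 14 h. Over all genes the calls also rose, from 878 to 3538 of 12104 at 2 h and from 3867 to 6944 of 12508 for the difference. At 14 h they rose from 6361 to 7609 of 12113. The block changed no other call count of the members, in total RNA or TE. Leaving out both libraries of a number, with the block, gave 6 to 9 members at 2 h (6 without number 5, 7 without number 6, 8 without number 2 and 9 without number 3), 7 to 8 at 14 h and 7 to 8 for the difference. Over all genes these fits called 2717 to 3167 at 2 h, 6708 to 7181 at 14 h and 6335 to 6667 for the difference. At 2 h, leaving out number 3 without the block gave 6, all lower, as were 638 of 11892 genes. Leaving out single libraries without the block gave 0 members at 2 h, 5 to 6 at 14 h and 2 to 4 for the difference, and 0 throughout in total RNA and TE. Over all genes the single-library fits called 517 to 953 at 2 h, 5611 to 6353 at 14 h and 3230 to 4929 for the difference. They called 30 to 450 genes in total RNA and 70 to 1110 in TE. None of the 8 values that changed direction was called. With single libraries left out, the log2 fold change ran from -0.166 to 0.126 for Spry2 and from -0.566 to 0.026 for Spry4 at 2 h, from -0.111 to 0.011 for Spry1 at 14 h, and from -0.227 to 0.358 for the difference of Spry4. At 2 h Spry2 became positive without number 3 of IFN-β (0.126) or without both libraries of number 3 (0.023, with or without the block), and Spry4 without number 3 of IFN-β (0.026). At 14 h Spry1 became positive without number 1 of vehicle (0.011). The difference between times of Spry4 became negative without number 2 (-0.060) or 5 (-0.016) of vehicle at 2 h, or number 3 of IFN-β at 2 h (-0.227). Over all members and alternatives, 518 values kept their direction and side of the threshold, 100 passed it newly, 14 no longer passed it and 8 changed direction. The 14 are Fgfr3 at 14 h and the difference of Etv5. The counts in total RNA limit every statement on mRNA level and TE for these genes, and the cause of the position of number 3 at 2 h was not tested.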
